A study of Mus musculus with 8 samples.

Results

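The genes of the major histocompatibility complex (MHC) class I were examined in bone marrow-derived macrophages (BMDMs) of WT and Gsdmd-/- mice. Their members were the 10 rows of the count table named H2-K1, H2-D1, H2-Q4, H2-Q7, H2-T22, H2-T23, H2-T24, H2-M2, H2-M3 and B2m, taken by symbol from 54532 genes, and all 10 passed the filter on low counts with 12911 genes in total. Bone marrow cells were cultured with 20 ng/ml macrophage colony-stimulating factor for 6 days and received no treatment, and RNA of 4 libraries per genotype was sequenced in bulk. The only difference in the labels is genotype, wildtype against a deletion of Gsdmd, the gene of the pore protein gasdermin D that carries out pyroptosis. The methods describe the bone marrow donors as female C57BL/6J mice of 6 to 8 weeks, without naming their genotype. No sex, age or strain is given for the Gsdmd-/- mice on their own. The WT mice were bought from a supplier and the Gsdmd-/- mice received as a gift, so genotype and source of the mice cannot be told apart. Neither the labels nor the methods say that each library came from its own mouse, and p-values measure the spread between these libraries, which may be technical.

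A class I molecule is a heavy chain held at the cell surface by beta-2 microglobulin, the product of B2m, with a short peptide in its groove. The classical heavy chains H2-K1 and H2-D1 are made by nearly every nucleated cell and show peptides of cytosolic proteins to CD8+ T cells, and macrophages also load peptides of engulfed material on them. The nonclassical heavy chains of the Q, T and M regions vary little between mouse strains and serve narrower tasks, among them the display of leader peptides by H2-T23 to natural killer cells and of formylated bacterial peptides by H2-M3.

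Each library held between 14935114 and 16794810 counts. Levels are given as CPM, counts relative to the TMM-scaled library total, on which 3 counts amounted to 0.177 to 0.199. Gsdmd had 75.3 ± 14.1 CPM in WT and 16.2 ± 1.56 CPM in Gsdmd-/- BMDMs (mean ± SD, n = 4), with no overlap between the genotypes. The libraries WT 2 and WT 3 stood apart from the rest, with scores of 45.4 and 38.8 on a first principal component that held 43.6% of the variance, against -25.9 to -7.19 in the other 6. Markers of macrophages were high in every library, with summed levels of 15468 to 23597 CPM in WT and 19530 to 23518 CPM in Gsdmd-/- BMDMs over 9 genes.

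Class I genes formed a wide ladder of expression. On the scale of CPM per kilobase of exon, which allows levels of different genes to be compared, B2m led with a mean of 4491 over the 8 libraries (2543 to 5587), and H2-D1 followed with 1622 (1019 to 1974). H2-K1 stood at 506 (296 to 660.4) and H2-T23 at 104 (90.7 to 124). These 4 genes came in the same order in each library, and the range of each lay apart from that of the next.

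Lower on the same scale, H2-M2 had a mean level of 48.5 CPM per kilobase but reached from 10.98 to 147, so its range overlapped those of H2-T23 and of H2-T22 at 35.5 (26.4 to 42.5). H2-M3 at 21.1 (13.2 to 25.005) and H2-Q4 at 20.2 (8.59 to 27.2) did not differ beyond their spread. H2-T24 at 5.78 (3.87 to 8.20) and H2-Q7 at 2.83 (0.601 to 5.37) overlapped in range, although H2-T24 was above H2-Q7 in each of the 8 libraries. The 3 genes H2-K1, H2-D1 and B2m held between 91.9% and 95.1% of the members' CPM in a library.

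None of the 10 members passed an adjusted p under 0.05 (edgeR quasi-likelihood test, Benjamini-Hochberg over all genes tested), a threshold that 45 genes or 0.349% of all genes passed, 0.209% as lower. At an unadjusted p under 0.05, which 1555 genes (12%) passed, 943 of them (7.3%) lower, 2 members were called, H2-M2 and H2-T24, both lower in Gsdmd-/- BMDMs. Both also passed the cutoff stated with the study's volcano plot (unadjusted p under 0.05 with a log2 fold change whose size reaches 0.5). That cutoff called 623 genes (4.83%) in either direction, 199 (1.54%) as higher and 424 (3.28%) as lower, a split that was 405 higher and 418 lower without WT 2 and WT 3. With DESeq2 in place of edgeR, both genes passed an adjusted p under 0.05, as 292 genes did. The genotypes did not overlap for these same 2 members, while 7.6% of all genes tested were without overlap, 4.12% lower and 3.48% higher in Gsdmd-/-. The median log2 fold change of the members was 0.26, beside -0.0068 over all genes tested, and 7 of 10 lay above 0 where 48.5% of all genes did. Without WT 2 and WT 3 the members' median turned to -0.11, beside -0.0073 over all genes, and 1 of 10 lay above 0.

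**Figure D1:**
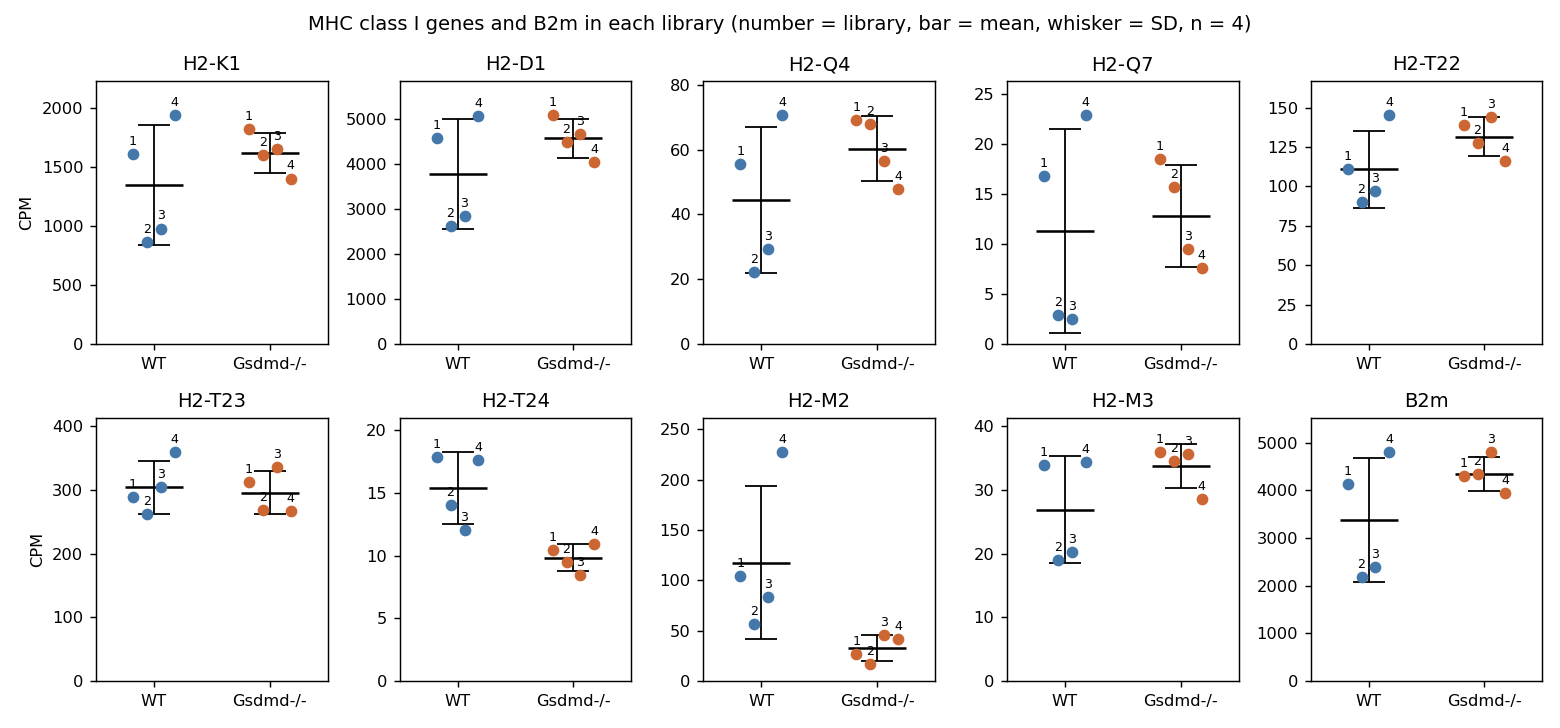
CPM of each member (vertical axis, starting at 0) in the 4 WT and 4 Gsdmd-/- libraries, with points numbered by library, a bar at the mean and a whisker of 1 SD. WT 2 and WT 3 are the lowest points for 7 of the 10 genes, while for H2-T24 and H2-M2 every Gsdmd-/- library is below every WT library.

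The classical heavy chains came first in order of role. H2-K1 (ENSMUSG00000061232, chr17:33996017-34000347 of GRCm38, minus strand) had 1609.8, 869, 981 and 1940.1 CPM in WT 1 to 4 and 1825, 1600.5, 1654 and 1405 CPM in Gsdmd-/- 1 to 4. WT 2 and WT 3 were below all other libraries, and WT 1 and WT 4 lay among or above the Gsdmd-/- values. The log2 fold change was 0.26 (SE 0.23, adjusted p = 0.704).

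H2-D1 (ENSMUSG00000073411, chr17:35262730-35267499, plus strand) had 4585, 2629, 2850.1 and 5082 CPM in WT 1 to 4 against 5091, 4506, 4669.8 and 4051 CPM in Gsdmd-/- 1 to 4. The same WT pair was low, and the genotypes overlapped, with a log2 fold change of 0.27 (SE 0.20, adjusted p = 0.646). The ratio of H2-D1 to H2-K1 counts, taken to follow each gene against the other between libraries and not to compare their levels, moved only from 2.62 to 3.03 in WT and from 2.79 to 2.88 in Gsdmd-/- BMDMs.

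B2m (ENSMUSG00000060802, chr2:122147686-122153083, plus strand), the only member outside chromosome 17, had 4139, 2187, 2387 and 4805 CPM in WT 1 to 4 and 4301, 4336, 4801 and 3940.4 CPM in Gsdmd-/- 1 to 4. Although it lies on another chromosome, its low libraries were again WT 2 and WT 3, and WT 4 was as high as any Gsdmd-/- library. The log2 fold change was 0.36 (SE 0.23, adjusted p = 0.583). The light chain had the same high and low WT libraries as the classical heavy chains H2-K1 and H2-D1, with a count ratio of B2m to H2-D1 of 0.832 to 0.945 in WT and 0.845 to 1.03 in Gsdmd-/- BMDMs.

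In the Q region, which holds a cluster of closely related heavy chain genes next to H2-D1, H2-Q4 (ENSMUSG00000035929, chr17:35379617-35385290, plus strand) had 55.6, 22.3, 29.4 and 70.5 CPM in WT 1 to 4 and 69.2, 67.9, 56.4 and 47.8 CPM in Gsdmd-/- 1 to 4. WT 2 and WT 3 were the low libraries and the genotypes overlapped, with a log2 fold change of 0.44 (SE 0.31, adjusted p = 0.624).

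H2-Q7 (ENSMUSG00000060550, chr17:35439155-35443773, plus strand) belongs to the Qa-2 group, whose proteins can be held in the membrane by a lipid anchor. It had 16.8, 2.93, 2.57 and 22.9 CPM in WT 1 to 4 against 18.5, 15.7, 9.51 and 7.63 CPM in Gsdmd-/- 1 to 4. Of the members it spread the most among WT libraries, where the highest value was 8.92 times the lowest, and the Gsdmd-/- values lay within the WT range. Its log2 fold change of 0.19 (SE 0.62, adjusted p = 0.934) was smaller than its error.

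The neighbouring copy H2-Q6, no member, had 4.70 and 5.92 CPM in WT 2 and WT 3 and 13.1 to 37.2 CPM elsewhere. Reads of these copies could be split between them: 26.5% of the distinct 50-base stretches of H2-Q7 transcripts were found in transcripts of another gene, and 36.4% of those of H2-Q4. How the authors' counting treated such reads is not given in the sources used here, and the levels of H2-Q4, H2-Q7 and H2-T22 are uncertain to that extent.

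Of the T region genes, H2-T23 (ENSMUSG00000067212, chr17:36029773-36032855, minus strand) encodes Qa-1, a ligand of the CD94/NKG2 receptors. It had 289, 262, 305 and 359 CPM in WT 1 to 4 and 312, 269, 336 and 266 CPM in Gsdmd-/- 1 to 4. Neither the WT pair nor a genotype stood out, and the log2 fold change of -0.039 (SE 0.12, adjusted p = 0.928) was the smallest in size of the 10.

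H2-T22 (ENSMUSG00000056116, chr17:36037128-36042747, minus strand), a ligand of some gamma delta T cell receptors, had 111, 90.2, 97.2 and 145 CPM in WT 1 to 4 and 139, 127, 144 and 116 CPM in Gsdmd-/- 1 to 4. WT 2 and WT 3 were the lowest, WT 4 the highest, and the log2 fold change was 0.25 (SE 0.14, adjusted p = 0.548). Of the 50-base stretches of its transcripts, 53.5% recurred in other genes, most of them in H2-T10.

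H2-T24 (ENSMUSG00000053835, chr17:36005695-36020560, minus strand), whose task is little known, had 17.9, 14.1, 12.03 and 17.6 CPM in WT 1 to 4 and 10.43, 9.52, 8.44 and 10.9 CPM in Gsdmd-/- 1 to 4. Here every Gsdmd-/- library was below every WT library, and WT 2 and WT 3, although the lower of the WT values, were still above them. The mean was 15.4 ± 2.85 CPM in WT and 9.83 ± 1.10 CPM in Gsdmd-/- BMDMs (SD, n = 4), or 63.8% of WT, with a log2 fold change of -0.65 (SE 0.15, unadjusted p = 0.00168, adjusted p = 0.132). Its counts were between 133 and 294 per library, and 3.17% of the 50-base stretches of its transcripts recurred in other genes.

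H2-T24 and H2-T23 lie close together on the same strand and had different patterns. The ratio of H2-T24 to H2-T23 counts was 0.0394 to 0.0619 in WT and 0.0251 to 0.0411 in Gsdmd-/- BMDMs, ranges that overlapped. The ratio of H2-T22 to H2-T23 counts went the other way without overlap, from 0.318 to 0.404 in WT and from 0.428 to 0.474 in Gsdmd-/- BMDMs, a ratio chosen after its values were seen and not tested.

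In the M region, H2-M3 (ENSMUSG00000016206, chr17:37270220-37274484, plus strand) had 33.96, 18.9, 20.3 and 34.3 CPM in WT 1 to 4 and 36.0, 34.6, 35.7 and 28.6 CPM in Gsdmd-/- 1 to 4. Its 2 low libraries were WT 2 and WT 3, as for the classical genes, and the log2 fold change was 0.33 (SE 0.20, adjusted p = 0.565).

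H2-M2 (ENSMUSG00000016283, chr17:37480851-37483552, minus strand), a nonclassical heavy chain at the far end of the region, had the largest difference between genotypes of the 10. It had 104, 56.1, 83.1 and 227 CPM in WT 1 to 4 against 27.1, 17.03, 45.5 and 41.2 CPM in Gsdmd-/- 1 to 4. Every Gsdmd-/- library was below every WT library, and WT 4 was far above the other WT libraries. The mean was 118 ± 75.7 CPM in WT and 32.7 ± 13.1 CPM in Gsdmd-/- BMDMs (SD, n = 4), or 27.8% of WT, with a log2 fold change of -1.85 (SE 0.43, unadjusted p = 0.00145, adjusted p = 0.124).

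The size of that difference depended on WT 4 in part, with a log2 fold change of -1.31 without this library, at an unadjusted p of 0.00148. H2-M2 counts divided by H2-K1 counts were 0.0646 to 0.117 in WT and 0.0106 to 0.0293 in Gsdmd-/- BMDMs, ranges that did not overlap. H2-K1 was itself low in WT 2 and WT 3, which raises the ratio in those libraries. The ratio is therefore no separate support for the gap. In bulk RNA, fewer cells that express a gene and less RNA of it per cell cannot be told apart.

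Markers of other cell types were read beside H2-M2 and H2-T24. Over 10 dendritic cell markers the summed level was 2246 to 2389.6 CPM in WT and 1688 to 2108 CPM in Gsdmd-/- BMDMs, nearly all of it Itgax, which macrophages also express. Of these, 5 were tested and all 5 lay below 0, with a median log2 fold change of -0.46, and Itgax was lower without overlap, at 1653 to 2080.3 CPM against 2206 to 2346 CPM in WT (log2 fold change -0.25, adjusted p = 0.337). Past the study cutoff 2 of the 5 were lower, where 3.28% of all genes were, Batf3 and Clec9a, the latter at 49.1 and 45.3 CPM in WT 2 and WT 3 and 14.5 to 18.3 CPM elsewhere. Their log2 fold changes were -0.52 and -0.061 without WT 2 and WT 3, and neither passed. Siglech was at 0 in every library, and Flt3 and Xcr1 reached at most 0.118 and 0.243 CPM. The part of dendritic cells in the result was not tested.

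Over 10 lymphoid markers the sum was 1.76 to 3.11 CPM in WT and 0.761 to 1.54 CPM in Gsdmd-/- BMDMs, with Cd3d and Ncr1 at 0 in every library. Sums over 8 neutrophil markers were 4.63 to 6.66 and 6.04 to 6.98 CPM with Ly6g at 0, over 7 stromal markers 5.05 to 9.04 and 4.21 to 6.63 CPM with 2 tested and Cdh5 lower past the study cutoff (log2 fold change -0.51, adjusted p = 0.402, and -0.38 with no call without WT 2 and WT 3), and over 6 erythroid markers 0 to 0.611 and 0.118 to 0.381 CPM. The part of these cells in the result was not tested.

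Within the WT group, most class I genes were low in the same libraries. WT 2 and WT 3 were the 2 lowest of the 8 libraries for H2-K1, H2-D1, H2-Q4, H2-Q7, H2-T22, H2-M3 and B2m, 7 of 10 members (70%), where this held for 2263 of 12911 genes tested (17.5%). The 10 members together made up 0.617% and 0.667% of all counts in WT 2 and WT 3, 1.11% and 1.25% in WT 1 and WT 4, and 1.00% to 1.19% in the Gsdmd-/- libraries. Macrophage markers went both ways in these libraries, as shown by 2 genes named after their values were seen. Fcgr1 had 7.09 and 6.66 CPM in WT 2 and WT 3 and 17.8 to 40.7 CPM in the others, while Mertk had 249.6 and 212 CPM in WT 2 and WT 3 and 101 to 142 CPM in the others. The part of these libraries' cell makeup in the class I levels was not tested.

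**Figure D2:**
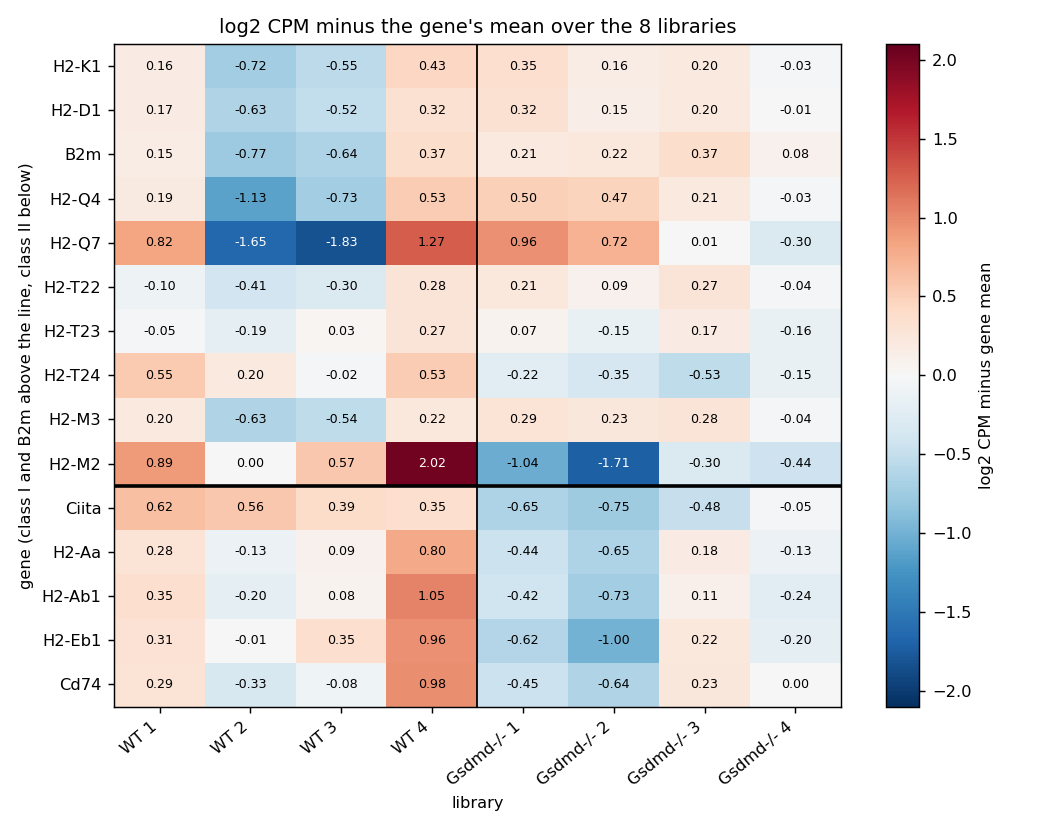
Each cell gives the log2 CPM of a gene (rows) in a library (columns) minus that gene's mean over the 8 libraries, with blue for below and red for above the mean. H2-K1 is at -0.72 and -0.55 in WT 2 and WT 3, and B2m at -0.77 and -0.64, while H2-M2 is at 2.02 in WT 4 and at -1.71 in Gsdmd-/- 2.

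The members were therefore also fitted without WT 2 and WT 3, which leaves 2 WT libraries. The log2 fold changes of H2-K1 (-0.13), H2-D1 (-0.080), H2-Q4 (-0.065), H2-Q7 (-0.62), H2-M3 (-0.020) and B2m (-0.043) then turned below 0, and that of H2-T22 was 0.037. Without WT 4, the highest WT library, the log2 fold changes went the other way, to 0.49 for H2-K1 (unadjusted p = 0.0287), 0.45 for H2-D1 (0.0314), 0.76 for H2-Q4 (0.0181), 0.41 for H2-T22 (0.00314), 0.47 for H2-M3 (0.0336) and 0.58 for B2m (0.015), with adjusted p-values from 0.0971 for H2-T22 to 0.207 for H2-M3. Calls also rose over all genes without WT 4: 1022 passed the study cutoff, 318 as higher and 704 as lower, and 84 passed an adjusted p under 0.05. The sign and size for the classical genes and B2m thus depended on which WT libraries were kept. Without WT 2 and WT 3, H2-M2 and H2-T24 kept their direction, with log2 fold changes of -2.34 (SE 0.36, adjusted p = 0.0173) and -0.86 (SE 0.13, adjusted p = 0.017), and both then passed the threshold, as did 161 genes in all.

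Likeness of pattern was measured as the root mean square difference between log2 CPM, each minus the gene's own mean, over the 8 libraries, which share depth and culture. The members' average pattern, at -0.59 and -0.45 in WT 2 and WT 3 and 0.62 in WT 4, was most closely followed among 8214 candidate genes by Ube2l6 (0.0445), Rgs2 (0.0628), Smg9 (0.0668), Ifi209 (0.0895) and Ddit3 (0.0961), where the median candidate had 0.386. Members with large swings weigh most in this average: in WT 4, H2-M2 was at 2.02 and H2-Q7 at 1.27, and the remaining members were at 0.22 to 0.53. Of the members, H2-D1 (0.0553), H2-M3 (0.0939) and B2m (0.0981) lay closest to H2-K1. Genes that are no members lay as close, so this pattern was not particular to class I genes. Slc25a28 (0.0343) was nearer to H2-K1 than any member. Uap1l1 (0.0732), Clec5a (0.0838), Yrdc (0.0899) and Hnrnpd (0.0910) were nearer than H2-M3 and B2m. H2-T24 (0.551), H2-Q7 (0.744) and H2-M2 (1.154) lay farthest from H2-K1.

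As further references, chosen after their values were seen, H2-T24 lay closest to Ppp1r10 (0.0902) and at 0.293 from Ciita, and H2-M2 lay closest to Acod1 (0.513), with the class II gene H2-Eb1 among its 5 nearest (0.561). These distances are descriptions over 8 libraries and carry no test.

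Promoters were read because 7 of the members shared their low libraries. RefSeq (GRCm38.p6) gave windows of 300 bases, from 250 before the start to 50 after it, for 9 of the 10 members. Background knowledge places 3 kinds of element in class I promoters: a kappa B site, an interferon response element bound by IRF proteins, and the SXY module read by RFX, CREB and NF-Y factors together with NLRC5. The letters searched on both strands were GGG followed by NN, TT, N and CC (kappa B), GAANNGAAA (IRF), TGATGAC (a CREB-type site of the module) and CCAAT (NF-Y), where N is any base. They were chosen with these promoters in view. The stretch from 10 bases before the first match to 10 bases after the last is printed 5′ to 3′ with matches in capitals for both classical genes, for H2-Q7 and H2-M3 with the same low libraries, for H2-M2 without them, and for B2m, at chr17:34000325-34000468 (minus strand), chr17:35262913-35263055 (plus), chr17:35439012-35439153 (plus), chr17:37270095-37270227 (plus), chr17:37483624-37483706 (minus) and chr2:122147551-122147648 (plus) in that order:
H2-K1: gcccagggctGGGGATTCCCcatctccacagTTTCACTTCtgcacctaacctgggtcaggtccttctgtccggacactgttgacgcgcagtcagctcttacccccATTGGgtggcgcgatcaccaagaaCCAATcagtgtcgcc
H2-D1: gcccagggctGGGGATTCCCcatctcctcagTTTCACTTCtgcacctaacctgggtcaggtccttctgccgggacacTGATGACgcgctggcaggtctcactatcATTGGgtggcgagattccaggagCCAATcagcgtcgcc
H2-Q7: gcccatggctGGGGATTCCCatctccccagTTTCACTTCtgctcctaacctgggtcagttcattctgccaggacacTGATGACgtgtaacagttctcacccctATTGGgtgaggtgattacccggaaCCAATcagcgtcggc
H2-M3: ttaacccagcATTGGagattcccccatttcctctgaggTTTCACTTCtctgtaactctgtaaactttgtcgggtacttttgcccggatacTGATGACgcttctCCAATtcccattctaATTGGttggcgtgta
H2-M2: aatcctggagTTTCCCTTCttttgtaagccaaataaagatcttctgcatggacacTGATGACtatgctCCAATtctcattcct
B2m: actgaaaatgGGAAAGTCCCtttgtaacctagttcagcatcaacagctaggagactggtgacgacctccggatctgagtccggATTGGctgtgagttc

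The order of matches was alike in H2-D1, H2-Q4 and H2-Q7, with kappa B farthest from the start, then IRF, TGATGAC and a pair of CCAAT boxes. H2-M2 had IRF, TGATGAC and CCAAT matches, and none of the kappa B letters in its window. H2-M3, which was low in WT 2 and WT 3 and was not called, had the same kinds of match. H2-T22 and H2-T23 also lacked the kappa B letters. The IRF letters were present in 6 of 9 members (H2-K1, H2-D1, H2-Q4, H2-Q7, H2-M2, H2-M3) and in 8.68% of 27025 genes with a window. TGATGAC was present in 6 of 9 (H2-D1, H2-Q4, H2-Q7, H2-T22, H2-M2, H2-M3) and 3.73% of genes, CCAAT in 9 of 9 and 41.1%, and the kappa B letters in 5 of 9 (H2-K1, H2-D1, H2-Q4, H2-Q7, B2m) and 5.48%. The first 3 stood together in 5 members and in 52 genes of all (0.192%). A match is a description of letters and no measure of binding, and H2-M2 shared 3 of the 4 kinds of match with H2-D1, while H2-M2 alone of the pair was called lower.

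**Figure D3:**
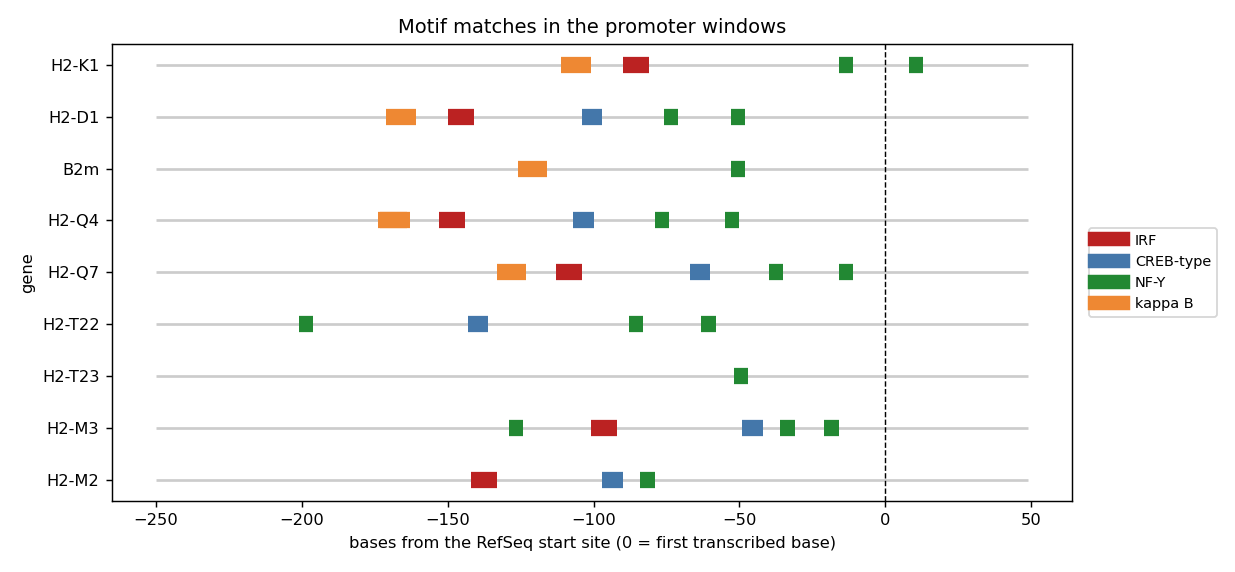
Positions of kappa B, IRF, CREB-type and NF-Y matches (coloured blocks) in the 9 promoter windows, with distance in bases from the RefSeq start on the horizontal axis and genes on the vertical axis. H2-D1, H2-Q4 and H2-Q7 carry the 4 kinds of match in the same order. H2-M2, H2-M3, H2-T22 and H2-T23 lack the kappa B block, and H2-T23 has a single NF-Y block.

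Genes that make and regulate class I molecules were read from lists chosen by known role. In the peptide loading list, which covers the transporter Tap1 and Tap2, tapasin and the chaperones of the endoplasmic reticulum, 0 of 14 genes passed the study cutoff, 4 lay above and 10 below 0, and the median log2 fold change was -0.065. Calr, the chaperone calreticulin and the gene with the most counts of this list, had 904 to 1128 CPM in WT and 804 to 954 CPM in Gsdmd-/- BMDMs (log2 fold change -0.21, adjusted p = 0.441). Tap1, named after its values were seen, had 77.8, 38.1, 35.4 and 77.8 CPM in WT 1 to 4 and 54.9 to 75.6 CPM in Gsdmd-/- BMDMs, low in the same WT pair as the classical heavy chains.

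The immunoproteasome list, whose subunits trim proteins into class I peptides, had 0 of 7 genes past the cutoff and a median of 0.067. Pomp, an assembly factor of the proteasome with the most counts of the list, had 104 to 173 CPM in WT and 125 to 161 CPM in Gsdmd-/- BMDMs (log2 fold change 0.068, adjusted p = 0.896).

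Among 26 tested regulators of class I expression, 2 (7.69%) were lower past the study cutoff and none higher, where 3.28% of all genes were lower and 4.83% were called, a share near that background. With 9 genes above and 17 below 0, the median was -0.061. Irf1, an interferon-induced activator of class I promoters, had 31.7, 38.9, 44.8 and 44.3 CPM in WT 1 to 4 and 21.1, 20.996, 26.6 and 25.2 CPM in Gsdmd-/- 1 to 4. Its genotypes did not overlap, and it fell by 0.77 on the log2 scale (SE 0.13, adjusted p = 0.0468). Without WT 2 and WT 3 it was at -0.70 on this scale with an adjusted p of 0.0695, past the threshold no longer. Stat2, which carries the type I interferon signal to the nucleus, had 41.7 to 52.5 CPM in WT and 23.2 to 35.7 CPM in Gsdmd-/- BMDMs without overlap (log2 fold change -0.63, SE 0.15, adjusted p = 0.124), and its log2 fold change was -0.51 without WT 2 and WT 3.

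With all 8 libraries the classical heavy chains passed no threshold in either direction, and a link of the Irf1 level to them was not tested. Nlrc5, the class I transactivator, named after its values were seen, had 25.2 to 37.9 CPM in WT and 23.7 to 32.7 CPM in Gsdmd-/- BMDMs (log2 fold change -0.15, adjusted p = 0.723). Susd6, which takes part in the removal of class I from the surface and had the most counts of the regulators, had 143 to 169.7 CPM in WT and 116 to 144 CPM in Gsdmd-/- BMDMs (log2 fold change -0.28, adjusted p = 0.279).

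Of 25 further class I and class I-like genes, 22 were in the table and 8 were tested, with 4 above and 4 below 0, and 9 had no count in any library. Fcgrt, the neonatal Fc receptor that also pairs with B2m, was the 1 gene past the study cutoff, with 7.06, 16.9, 20.03 and 7.97 CPM in WT 1 to 4 and 7.22 to 8.56 CPM in Gsdmd-/- BMDMs (log2 fold change -0.74, SE 0.31, adjusted p = 0.380). It was high in WT 2 and WT 3, the libraries in which B2m was low, and WT 1 and WT 4 were close to the Gsdmd-/- values. Its log2 fold change was 0.046 without WT 2 and WT 3 (adjusted p = 0.943). Cd1d1, which shows lipids to T cells, was higher in Gsdmd-/- BMDMs without overlap, at 17.8 to 19.5 CPM against 12.8 to 17.7 CPM in WT (log2 fold change 0.31, adjusted p = 0.333), and was below the size of the study cutoff. Mr1, which shows vitamin metabolites to mucosal T cells and had the most counts of these genes, was likewise highest in WT 2 and WT 3, at 73.6 and 69.6 CPM against 38.5 to 55.9 CPM elsewhere (log2 fold change -0.13, adjusted p = 0.840).

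The list of class I receptors of myeloid cells and their relatives had 0 of 7 tested genes past the cutoff and a median of 0.16. Lilr4b, of the gp49 receptors, with the most counts of the list, had 969 to 1371 CPM in WT and 1279 to 1477 CPM in Gsdmd-/- BMDMs (log2 fold change 0.24, adjusted p = 0.471).

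**Figure D4:**
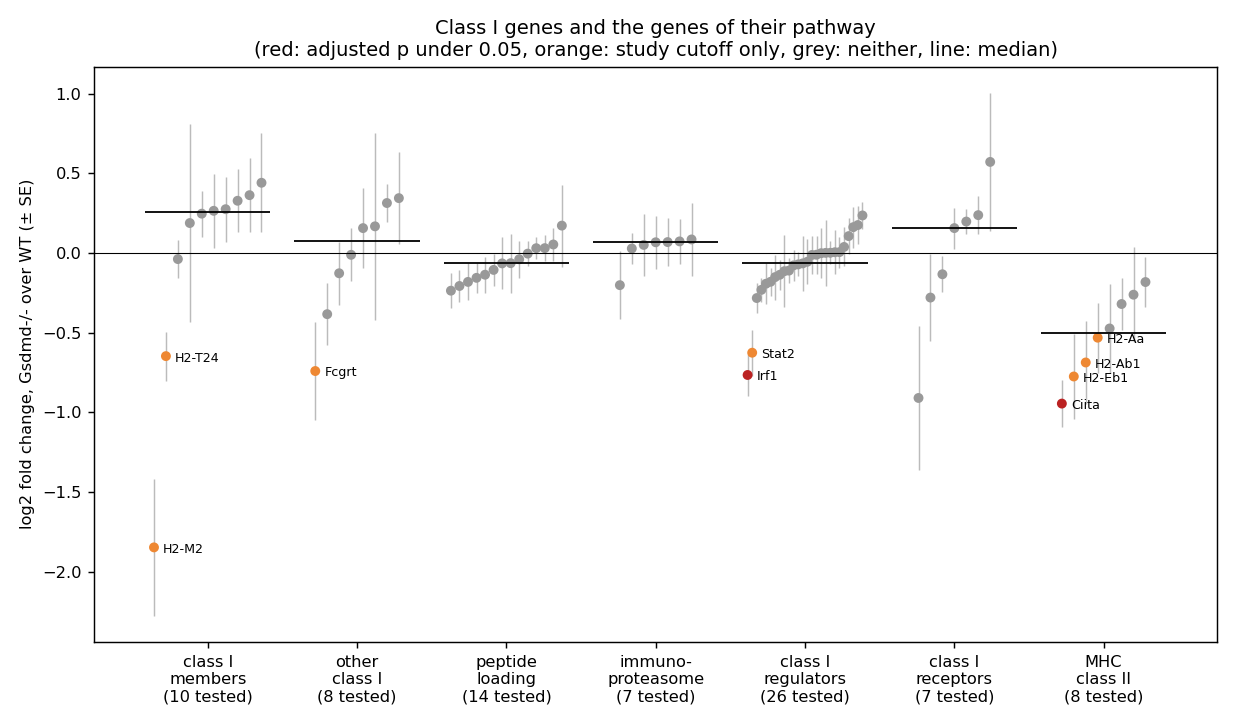
Log2 fold change of Gsdmd-/- over WT (vertical axis, whiskers 1 SE) for each tested gene, grouped by list, with a line at the list's median. H2-M2 at -1.85 is the lowest point of all lists, Irf1 and Ciita are the only red points (adjusted p under 0.05), and the peptide loading and immunoproteasome genes stay between -0.24 and 0.17.

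MHC class II genes, which macrophages use to show engulfed antigens to CD4+ T cells, were read beside the class I genes, and no difference between these groups was tested. Of 8 tested, all lay below 0 with a median log2 fold change of -0.50, and 4 passed the study cutoff as lower, where 3.28% of all genes did: Ciita, the class II transactivator (log2 fold change -0.95, adjusted p = 0.0339), H2-Eb1 (-0.78, adjusted p = 0.295), H2-Ab1 (-0.69, adjusted p = 0.337) and H2-Aa (-0.53, adjusted p = 0.374). The genotypes overlapped for the last 3. Without WT 2 and WT 3 all 4 stayed below 0 (-0.96 for Ciita, adjusted p = 0.0411, and -1.03 to -0.79 for the others). Cd74, the invariant chain with the most counts of the list, was at 2088 to 5189.9 CPM in WT and 1687 to 3088 CPM in Gsdmd-/- BMDMs (log2 fold change -0.47, adjusted p = 0.555). H2-M2 and these class II genes had WT 4 as the highest library, as the plot of centred values shows, with the exception of Ciita. The dendritic cell markers given above also lay below 0, and their part in the class II levels was not tested.

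The stretch of chromosome 17 from H2-K1 to H2-M2 held 316 genes of the table, of which 93 were tested. At the study cutoff 4 were higher and 6 lower, or 10.8% beside 4.83% of all genes, and the median log2 fold change was -0.022. The balance turned to 6 higher and 4 lower without WT 4, where 318 of all genes were higher and 704 lower. It was 4 higher and 11 lower without WT 2 and WT 3, where 405 of all genes were higher and 418 lower. With all libraries, the 6 lower genes were H2-M2, H2-T24, 3 class II genes and Ppp1r10, a regulatory subunit of protein phosphatase 1 located between H2-D1 and H2-T24, with 74.7 ± 7.87 CPM in WT and 48.6 ± 3.69 CPM in Gsdmd-/- BMDMs (SD, n = 4) and no overlap. Ppp1r10 was the only gene of the stretch to pass the adjusted threshold (log2 fold change -0.62, SE 0.099, adjusted p = 0.0346), and without WT 2 and WT 3 it was at -0.75 (adjusted p = 0.00858).

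The 4 higher genes were Ier3, an early response gene at 27.6 and 51.3 CPM (log2 fold change 0.90), and Ddah2, Gm7030 and Gm10074, each at 2.19 CPM or less in every library. H2-T22 and H2-T23 lie between H2-T24 and these Gm genes and passed no threshold. Genes that were higher, lower and not called were thus neighbours in this stretch.

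**Figure D5:**
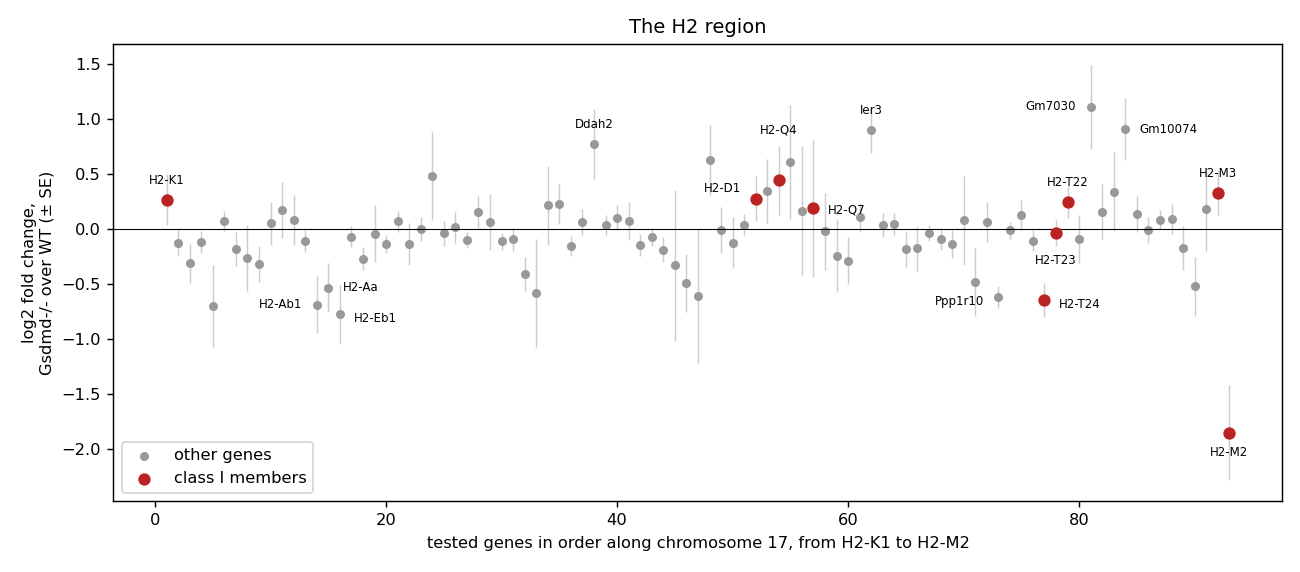
Log2 fold change of Gsdmd-/- over WT (vertical axis, whiskers 1 SE) for the 93 tested genes in their order along chromosome 17 (horizontal axis), with the class I members in red. H2-M2 at the right end is lowest at -1.85, and H2-T24 at -0.65 stands beside H2-T23 at -0.039 and H2-T22 at 0.25.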

How the data were processed

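Total RNA of BMDMs went into TruSeq libraries, and the authors deposited a table of raw read counts per gene, 8 columns with all values whole and none normalized. Per the submitters' processing notes the build was mm10, and the aligner and counting tool are not given in the sources used here. The methods name limma, and the legend of the volcano plot names edgeR. Members and gene lists were chosen with earlier results of these data known.

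Genes were filtered with filterByExpr, scaled by TMM and tested by the quasi-likelihood test of edgeR 4.0.16 in R 4.3.3 (two-sided), with a single term for genotype and all 8 libraries, and p-values were adjusted by Benjamini-Hochberg over 12911 genes. The fit was tested on simulated data. Alternatives were limma 3.58.1 (voom), DESeq2 1.42.0, other scalings and filters, libraries left out, a replicate block, and summed near-identical copies. CPM used the TMM-scaled totals, and log2 CPM a prior count of 2. Gene positions and exon lengths came from GENCODE M21 for 54495 of 54532 genes. Named genes were all members, each listed pathway gene past a threshold, the gene with the most counts per list, Gsdmd, and the 5 genes closest to the members' average among those with a mean of at least 10 CPM. Other genes (Fcgr1, Mertk, H2-Q6, Cd1d1, Tap1, Nlrc5, the genes nearest to H2-K1, H2-T24 or H2-M2, cell markers at or near 0 and the called genes of the H2 region) were named after their values were seen. The limit of 3 counts covers counting error only.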

Additional observations from a re-analysis of the deposited data

Results flagged for a closer look

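Of 54 groups of 4 libraries examined over 27 genes (the members, Gsdmd and the genes named from the pathway and marker lists), 1 held a library far from the others, where chance flags about 1 in 20. Lilr4b, of the gp49 receptors of myeloid cells, had 1477 CPM in Gsdmd-/- 2 against 1279 to 1303.5 CPM in the other 3 Gsdmd-/- libraries. No member of the class I genes was flagged in this way in either genotype.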

How the results depend on the processing

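H2-M2 and H2-T24 were lower in Gsdmd-/- BMDMs with an unadjusted p under 0.05 under each of 17 alternatives, with log2 fold changes of -2.34 to -1.31 and -0.86 to -0.57 and adjusted p-values of 0.00725 to 0.393 and 0.014 to 0.365 (edgeR, limma or DESeq2). The count of members with an adjusted p under 0.05 was 0 and became 2 with DESeq2, 2 without WT 2 and WT 3, 1 with no filter (H2-M2) and 1 with the replicate block (H2-M2, adjusted p = 0.0365), and past the study cutoff it was 1 with a log2 fold change of at least 1 and 2 to 4 with a library left out, H2-Q4 and B2m being added as higher without WT 4. Over all genes the adjusted count of 45 became 292 with DESeq2, 109 with no filter, 161 without WT 2 and WT 3, 25 with the replicate block and 14 to 84 with a library left out, and the study cutoff's 623 became 1204 with no filter, 199 with a log2 fold change of at least 1 and 469 to 1022 with a library left out. The pathway lists' 7 became 11 without WT 2 and WT 3 and 5 to 8 with a library left out, and the H2 region's 10 became 17 with no filter and 7 to 12 with a library left out. Without WT 2 and WT 3, log2 fold changes turned to -0.13 (H2-K1), -0.080 (H2-D1), -0.065 (H2-Q4), -0.62 (H2-Q7), -0.020 (H2-M3) and -0.043 (B2m). With single libraries left out, H2-Q7 went from -0.14 to 0.79 and H2-T23 from -0.11 to 0.054. The causes were not tested. The replicate numbers are only shared names: same-numbered libraries of the genotypes correlated at 0.027, 0.18, 0.041 and -0.20 in their deviations, and not every library correlated best with its own number. The replicate block changed no other call of a member.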
